A study of Mus musculus with 8 samples.

Results

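Genes of the major histocompatibility complex (MHC) and of antigen processing were examined in RNA-Seq counts from mouse aortic smooth muscle cells (MASMCs). Members were taken by symbol alone: every symbol beginning with H2-, the prefix of the mouse MHC, plus B2m, Tap1, Tap2, Tapbp, Psmb8, Psmb9, Psmb10, Ciita, Nlrc5 and Cd74. This gave 45 of the 18533 symbols in the count files, and the rule itself uses no measured value. By role they were 2 classical class I genes, 23 nonclassical class I genes, 4 classical class II genes, 5 nonclassical class II genes and the 10 genes listed by name. The remaining symbol, H2-Ke6, lies among the MHC genes but encodes a hydroxysteroid dehydrogenase.

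The study compared 4 WT with 4 Hint1-/- libraries. All 8 libraries, the WT ones included, came from cultured MASMCs given PDGF-BB, a growth factor that drives smooth muscle cells to proliferate and lose contractile genes, at 20 ng/mL for 24 h. The cells came from male mice 4 to 6 weeks old, and Hint1, which encodes a histidine triad nucleotide-binding protein, was deleted in the whole mouse and not by a Cre driver. The methods name the thoracic aorta in one place and the whole aorta in another, and say that adventitia and endothelium were removed by hand, with no sort of the cells. The Hint1-/- mice were obtained from another institute and C57BL/6J mice were purchased; comparisons were between littermates, and the strain background of the Hint1-/- line was not stated. Whether each library came from its own mouse was not stated either, so p-values measure the spread between these libraries, which may be technical.

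MHC class I molecules pair a heavy chain (H2-K1, H2-D1 and relatives) with beta-2-microglobulin and show peptides from inside the cell to CD8 T cells; nearly all nucleated cells carry them. The peptides are cut by the proteasome, whose interferon-induced subunits are Psmb8, Psmb9 and Psmb10, pumped into the endoplasmic reticulum by the Tap1-Tap2 transporter and loaded with the help of tapasin (Tapbp). Class II molecules present peptides taken up from outside to CD4 T cells; they need the invariant chain (Cd74) and the H2-DM peptide exchanger, and are made mainly by dendritic cells, B cells and macrophages under the control of Ciita, as Nlrc5 controls class I genes.

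The libraries held 20778077 to 20888041 estimated counts each. Hint1 itself had 2272 to 2364 counts in WT and 713 to 778 in Hint1-/- libraries, a log2 fold change of -1.64 (SE 0.037, edgeR adjusted p = 6.8e-16). The label of the cells was checked against markers. Acta2, the smooth muscle actin, had 15956 to 17855 counts in WT and 11640 to 12331 in Hint1-/- libraries, whereas Myh11, the myosin heavy chain of mature smooth muscle, had 406 to 456 and 136 to 152. Markers of other cells were also present: the macrophage gene Lyz2 had 23425 to 27662 and 19497 to 20726 counts, and the leukocyte gene Ptprc 1004 to 1162 and 784 to 901. The summed level of the 12 macrophage and monocyte markers was 2708 to 3093 CPM (counts scaled to library size) in WT and 2216 to 2379 CPM in Hint1-/- libraries. Of the 11 tested, 9 fell at adjusted p under 0.05 (edgeR), each by less than 1.5-fold, where 10.2% of all genes fell. The macrophage gene Aif1 was near 0 (3 to 14 counts). Which cells carried each MHC transcript was not tested, and in bulk libraries fewer cells of a type and less RNA per cell cannot be told apart.

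Of the 45 members, 32 passed the filter on low counts, as did 13535 of all genes. The genotypes were compared with edgeR's quasi-likelihood test over all of these genes, with Benjamini-Hochberg adjusted p-values, and log2 fold changes are Hint1-/- over WT. Of the 32, 1 member, the class II gene H2-Ab1, passed both an adjusted p under 0.05 and a fold over 1.5, the thresholds of the study; this is 3.12%, against 2.83% of all genes. At adjusted p under 0.05 alone, which is called passing the test below, 9 of 32 passed (28.1%, against 21.5% of all genes). H2-Ab1, H2-DMb1, H2-Q7, H2-T-ps and H2-T23 rose (15.6%, against 11.2%), and H2-T24, Nlrc5, Psmb9 and Psmb10 fell (12.5%, against 10.2%). The median log2 fold change of the 32 members was -0.036 and that of all genes 0.000. The levels of the genotypes did not overlap for 10 members (31.2%), against 23.0% of all genes. These shares were close to the background, so the members as a list did not stand out; the rest of the account describes the single genes.

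**Figure D1:**
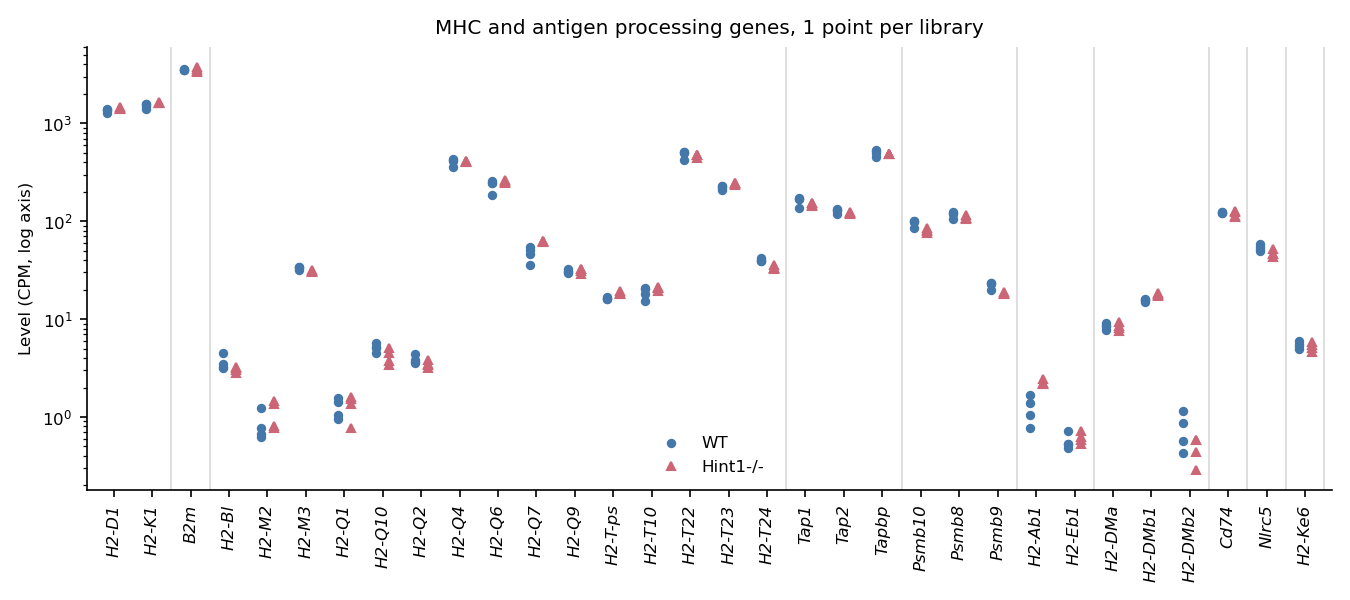
Level of each of the 32 members past the low-count filter in CPM (logarithmic y axis), with 1 circle per WT library and 1 triangle per Hint1-/- library, grouped by role between the grey lines. B2m, H2-K1 and H2-D1 are the highest genes in every library, whereas H2-Ab1, H2-Eb1 and H2-DMb2 lie near 1 CPM.

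The light chain and the classical heavy chains were the most abundant members, and none of them passed the test. B2m, the beta-2-microglobulin gene (chr2:122147686-122153083, GRCm38), had 74950, 74063, 74048 and 73944 counts in the WT libraries and 77908, 74583, 71188 and 70263 in the Hint1-/- libraries. The 4 WT values lay inside the range of the Hint1-/- values. CPM averaged 3552 ± 29.2 in WT against 3542 ± 173 in Hint1-/- libraries (SD, n = 4 each), and the log2 fold change was -0.0038 (SE 0.036, edgeR adjusted p = 0.956).

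H2-K1 (chr17:33996017-34000347) encodes the K heavy chain. It had 33044, 32892, 31800 and 29253 counts in WT and 34547, 33364, 33554 and 33550 in Hint1-/- libraries. All Hint1-/- values lay above all WT values, with WT replicate 4 the lowest. The log2 fold change was 0.10 (SE 0.037, edgeR adjusted p = 0.0662), and the exact permutation p, two-sided, was 0.0286, the smallest that 4 against 4 libraries can give. H2-K1 passed the edgeR test without WT replicate 1 (adjusted p = 0.0428) or WT replicate 2 (adjusted p = 0.0413), and by DESeq2 (adjusted p = 0.0450). H2-D1 (chr17:35262730-35267499), the D heavy chain, had 29312, 28625, 28944 and 26463 counts in WT and 30461, 29333, 29699 and 28991 in Hint1-/- libraries. Here the ranges overlapped, and the log2 fold change was 0.08 (SE 0.035, edgeR adjusted p = 0.149). Added together, the heavy chains averaged 2874 ± 141 CPM in WT and 3055 ± 55.1 CPM in Hint1-/- libraries (SD, n = 4 each), and the lowest WT library, replicate 4, was at 2669 CPM.

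Levels can be set beside each other only per length of exon. On that scale B2m stood at 4130 CPM per kb in WT, H2-D1 at 526 and H2-K1 at 517. H2-Q4 (156), H2-T22 (143), Tapbp (139) and H2-Q6 (112) followed, and H2-Ab1 was at 0.475.

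The upstream regions of H2-K1, H2-D1 and H2-Q6 hold the kappa B element, a binding site of NF-kappa B long known in class I promoters. They are shown because these sequences are nearly alike while the genes lie far apart. The windows are from RefSeq (GRCm38.p6), read 5′ to 3′ on the strand of the gene, with the element, or its counterpart, in capitals: H2-Q6 at chr17:35424657-35424707 (+), H2-K1 at chr17:34000428-34000478 (-), H2-D1 at chr17:35262903-35262953 (+), H2-Q4 at chr17:35379423-35379473 (+) and H2-Q7 at chr17:35439002-35439051 (+).
H2-Q6: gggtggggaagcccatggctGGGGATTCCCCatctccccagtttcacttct
H2-K1: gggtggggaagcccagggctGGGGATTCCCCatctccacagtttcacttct
H2-D1: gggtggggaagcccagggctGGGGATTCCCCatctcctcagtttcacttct
H2-Q4: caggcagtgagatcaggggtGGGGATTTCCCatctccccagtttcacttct
H2-Q7: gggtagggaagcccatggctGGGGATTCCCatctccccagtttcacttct

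The H2-K1 and H2-D1 windows each differed from that of H2-Q6 at 2 of 51 bases, and none of these lay in the element. The best match in H2-Q10 differed at 4 bases, 2 of them in the element, and that in H2-Q4 at 12 bases, 1 of them in the element; H2-Q10 is not printed because it was low, and H2-Q4 is printed as the most abundant nonclassical gene of the Q family. The H2-Q7 window has 1 base fewer in the element and otherwise differed from H2-Q6 at 1 base. The kappa B motif searched (GGGGA, any base, TCCCC, on either strand) was in the RefSeq promoters (250 bases before to 50 after the start) of these 3 of the 33 members with a promoter sequence, and in 12 of the 27025 genes in all (0.0444%). Of the genes shown, H2-Q7 alone passed the test. H2-Q7 and H2-Q4 lack the exact letters searched. Shorter or looser forms of the kappa B element were not searched, so the counts of promoters do not cover them. Whether H2-Q7 or H2-Q4 holds such a form was not tested. A match describes the letters of the window only.

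Further motifs were searched on both strands, as exact letters. Looser forms were not searched, so a promoter without a match may still hold the element. The interferon-stimulated response element core (GAAA, any 2 bases, GAAA) was in 3 of 33 member promoters (9.09%, against 3.49% of all promoters): those of B2m, H2-T22 and H2-T23. They are shown with the core, or its reverse complement, in capitals, for B2m at chr2:122147528-122147577 (+), H2-T22 at chr17:36042904-36042953 (-) and H2-T23 at chr17:36032796-36032845 (-).
B2m: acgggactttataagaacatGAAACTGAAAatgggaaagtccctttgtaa
H2-T22: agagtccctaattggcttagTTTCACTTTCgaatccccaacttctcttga
H2-T23: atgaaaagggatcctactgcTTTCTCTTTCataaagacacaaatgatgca

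These 3 genes did not move alike: H2-T23 rose, and B2m and H2-T22 did not pass the test. The interferon-gamma activated sequence TTCNNNGAA was in 3 of 33 (9.09%, against 8.47%), and the CCAAT box in 27 of 33 (81.8%, against 37.9%). No promoter sequence was matched for H2-Ab1, H2-T24, Tap2, Nlrc5, Ciita, H2-Q1, H2-Q8, H2-Q9, H2-T10, H2-T18, H2-Bl and Cd74.

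**Figure D2:**
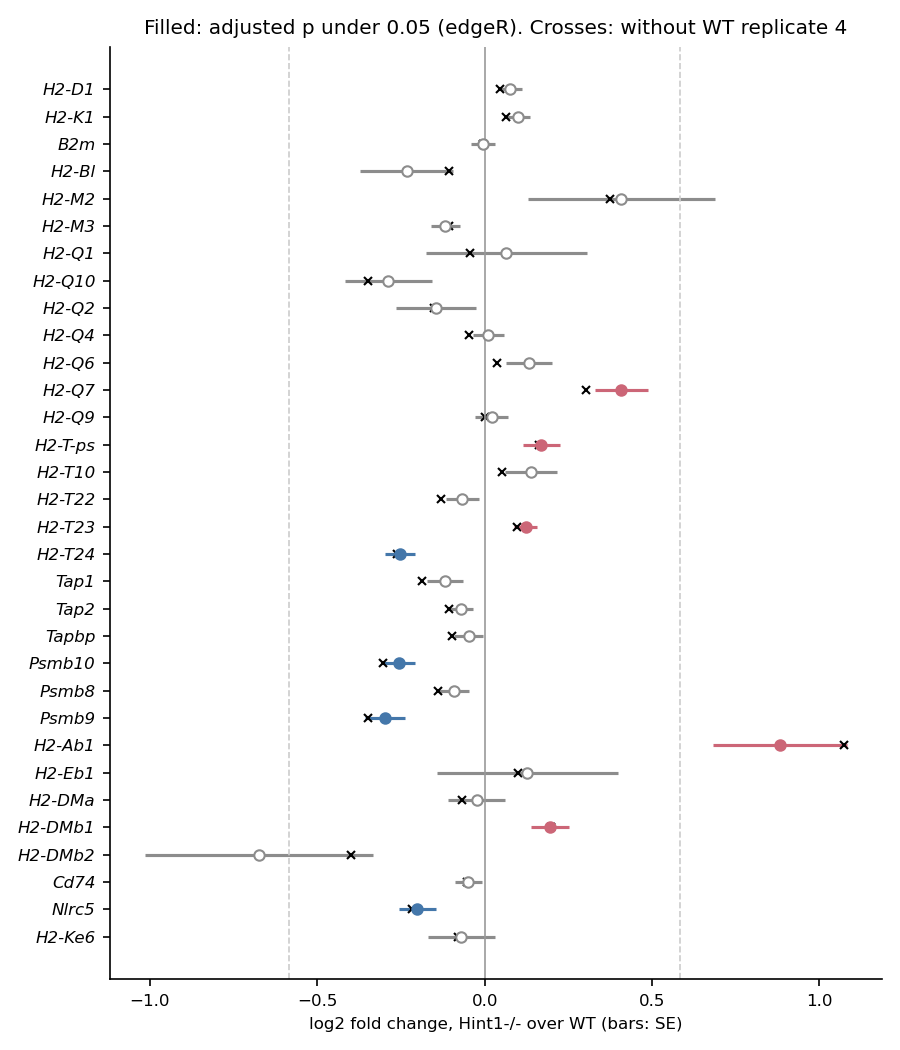
Log2 fold change of each tested member, Hint1-/- over WT (x axis; bars, SE from edgeR), with filled points at adjusted p under 0.05 and crosses for the fit without WT replicate 4; dashed lines mark a fold of 1.5. H2-Ab1, at 0.88, is the only filled point past a dashed line, and Psmb9, Psmb10 and H2-T24 lie between -0.30 and -0.25.

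The nonclassical class I genes encode heavy chains with few alleles and more special tasks, and 15 of the 23 were tested. H2-Q7, H2-T-ps and H2-T23 rose and H2-T24 fell; the other 11 did not pass the test, and the median log2 fold change was 0.021. In the Q family, H2-Q7 and its neighbours encode the Qa-2 antigens. H2-Q7 (chr17:35439155-35443773) had 1147, 1065, 960 and 754 counts in WT and 1277, 1277, 1303 and 1315 in Hint1-/- libraries. No WT value reached the Hint1-/- values, and WT replicate 4 was again the lowest. CPM averaged 46.9 ± 8.12 in WT against 62.3 ± 0.823 in Hint1-/- libraries (SD, n = 4 each), a log2 fold change of 0.41 (SE 0.079, edgeR adjusted p = 0.000904), and 0.30 without WT replicate 4 (adjusted p = 0.000184).

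The level of H2-Q7 depends in part on how short reads were divided between similar genes. The estimated counts of H2-Q7 were not whole numbers in all 8 libraries, and 26.4% of the 50-base words of its transcripts occur in other genes. For H2-Q6 the share was 32.0%, whereas B2m shared none. H2-Q8 and H2-Q9 had no transcripts in the annotation used, so words in common with them were not counted. When H2-Q6, H2-Q7, H2-Q8 and H2-Q9 were summed into 1 feature before the fit, an alternative added after the values were seen, the log2 fold change was 0.17 (edgeR adjusted p = 0.0633). The summed genes thus did not pass the test. H2-Q6 weighed most in the sum, with a mean of 5091 counts against 1137 for H2-Q7. Whether the division of reads contributed to the rise of H2-Q7 was not tested.

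The other Q genes did not pass the test. H2-Q4 had 7454 to 9025 counts in WT and 8287 to 8647 in Hint1-/- libraries (log2 fold change 0.011), and H2-Q6 had 3874 to 5364 and 5123 to 5505 (0.13). For both, the lowest of the 8 libraries was WT replicate 4. H2-Q9 had 616 to 683 and 602 to 683 counts (0.021), and the ranges nearly coincided. H2-Q10, H2-Q2 and H2-Q1 were low, at 71 to 118, 65 to 91 and 16 to 33 counts over all libraries, with log2 fold changes of -0.29, -0.15 and 0.065. H2-Q8 had 0, 0, 0 and 21 counts in WT and 0, 13, 0 and 98 in Hint1-/- libraries, zeros beside scattered higher counts in both genotypes, and it was not tested.

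Of the T family, H2-T23 encodes Qa-1, the heavy chain that binds leader peptides of other class I chains and is read by NKG2 receptors of natural killer cells. H2-T23 (chr17:36029773-36032855) had 4776, 4579, 4755 and 4369 counts in WT and 5067, 4956, 5098 and 4845 in Hint1-/- libraries. Every Hint1-/- value was above every WT value, by a narrow margin. The log2 fold change was 0.12 (SE 0.035, edgeR adjusted p = 0.0165), and without WT replicate 4 it was 0.10 (adjusted p = 0.0542), which ends the call.

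H2-T24 (chr17:36005695-36020560) moved the other way. It had 821, 884, 835 and 823 counts in WT and 688, 692, 751 and 670 in Hint1-/- libraries, with no overlap. The log2 fold change was -0.25 (SE 0.045, edgeR adjusted p = 0.000415), and -0.26 without WT replicate 4. Only 3.17% of its 50-base words were shared with other genes, the lowest share among the 4 nonclassical class I genes that passed.

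H2-T-ps had 346, 350, 335 and 336 counts in WT and 370, 382, 399 and 374 in Hint1-/- libraries. The groups did not overlap, the log2 fold change was 0.17 (SE 0.055, edgeR adjusted p = 0.0352), and 29.4% of its words were shared, most of them with H2-T23. The call was kept in 6 of 15 alternative analyses. H2-T22 encodes a heavy chain recognised by gamma delta T cells, and 31.2% of its words also occur in H2-T10, which RefSeq lists as a transcribed pseudogene. H2-T22 had 10614, 10534, 10753 and 8788 counts in WT and 9860, 9745, 9813 and 9128 in Hint1-/- libraries. WT replicate 4 lay below all Hint1-/- libraries and the other 3 WT libraries above them, so the call turned on 1 library: the log2 fold change was -0.067 (edgeR adjusted p = 0.390), and -0.13 without WT replicate 4 (adjusted p = 0.0119). H2-T10 had 316 to 440 and 403 to 440 counts (0.14) and did not pass the test.

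Among the M genes, H2-M3, which presents N-formylated peptides, had 687, 715, 670 and 710 counts in WT and 638, 623, 660 and 624 in Hint1-/- libraries. The ranges did not overlap, and the log2 fold change was -0.12 (SE 0.044, edgeR adjusted p = 0.0638). H2-M2 was near the detection limit, at 13 to 30 counts over all libraries (0.41), and the pseudogene H2-Bl was at 58 to 94 counts (-0.23). H2-M1, H2-M10.2, H2-M10.3, H2-M10.5, H2-M5, H2-T3 and H2-T18 had 0 to 5 counts in every library and were not tested.

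Of the 6 genes of peptide transport, loading and the immunoproteasome, 2 fell and none rose, where 10.2% of all genes fell and 11.2% rose. All 3 immunoproteasome subunits had negative log2 fold changes, and Psmb9 and Psmb10 passed the test. Psmb9 (chr17:34181987-34187764), the beta 1i subunit, had 478, 493, 491 and 418 counts in WT and 382, 389, 374 and 373 in Hint1-/- libraries. The ranges did not overlap, even with WT replicate 4 standing below the other WT libraries. CPM averaged 22.5 ± 1.66 in WT against 18.3 ± 0.399 in Hint1-/- libraries (SD, n = 4 each), a log2 fold change of -0.30 (SE 0.060, edgeR adjusted p = 0.00129).

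Psmb10 (chr8:105935735-105938444), the beta 2i subunit, lies outside the MHC. It had 2093, 2044, 2099 and 1795 counts in WT and 1668, 1648, 1767 and 1592 in Hint1-/- libraries, again without overlap. The log2 fold change was -0.26 (SE 0.047, edgeR adjusted p = 0.000546). Psmb8 (chr17:34197721-34201454), the beta 5i subunit, had 2562, 2481, 2516 and 2189 counts in WT and 2226, 2251, 2419 and 2173 in Hint1-/- libraries. The 3 upper WT libraries lay above all Hint1-/- libraries and WT replicate 4 within them. Its log2 fold change was -0.09 (SE 0.046, edgeR adjusted p = 0.167), and -0.14 without WT replicate 4 (adjusted p = 0.0161). Reads of the 3 subunits were hardly shared with other genes, 0.227% of words for Psmb8 and none for the others.

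The transporter and tapasin did not pass the test. Tap1 (chr17:34187553-34197225) had 3505, 3630, 3519 and 2882 counts in WT and 3184, 3191, 3042 and 2956 in Hint1-/- libraries; the log2 fold change was -0.12 (SE 0.054, edgeR adjusted p = 0.134). Tap2 (chr17:34203527-34216321) had 2773, 2696, 2696 and 2462 in WT and 2539, 2431, 2570 and 2496 in Hint1-/- libraries, with -0.07 (SE 0.038, edgeR adjusted p = 0.199). For Tap1 as for Psmb8, WT replicate 4 was apart from the other WT libraries. Without that library the edgeR log2 fold changes were -0.19 for Tap1 (adjusted p = 0.00102) and -0.11 for Tap2 (adjusted p = 0.0412). Tapbp (chr17:33915899-33929292) had 11271, 10857, 10516 and 9426 counts in WT and 10128, 9968, 10105 and 10177 in Hint1-/- libraries, a log2 fold change of -0.05 (SE 0.043, edgeR adjusted p = 0.474), and its ranges overlapped.

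Psmb9 and Tap1 are transcribed away from each other, and their RefSeq starts leave 225 bases between them. The interval is shown because it lies upstream of both RefSeq starts, although the longer GENCODE span of Psmb9 given above contains it, with its CCAAT box in capitals: chr17:34187331-34187555, GRCm38.p6, on the strand of Tap1.
Psmb9-Tap1: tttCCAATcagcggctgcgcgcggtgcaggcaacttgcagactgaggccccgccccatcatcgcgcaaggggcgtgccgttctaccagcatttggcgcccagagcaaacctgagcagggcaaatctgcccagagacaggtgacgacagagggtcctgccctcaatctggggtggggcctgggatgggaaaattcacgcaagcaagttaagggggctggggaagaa

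Psmb9 passed the test and its divergent neighbour Tap1 did not, with log2 fold changes of -0.30 and -0.12; whether the 2 genes differ in response was not tested.

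Nlrc5 (chr8:94434356-94527272), the class I transactivator, had 1045, 1239, 1134 and 1082 counts in WT and 886, 966, 957 and 1076 in Hint1-/- libraries. The highest Hint1-/- library lay above the lowest WT library, so the ranges overlapped slightly. The log2 fold change was -0.20 (SE 0.056, edgeR adjusted p = 0.0144), and the two-sided exact permutation p was 0.0571. Nlrc5, the transactivator of class I genes, thus fell while H2-K1, H2-D1 and B2m did not pass the test.

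The class II genes divided into transcripts that were nearly absent and transcripts that were plainly present. Of the 4 classical chains, H2-Aa had 0 to 2 counts in each library, H2-Eb2 0 to 3 and H2-Eb1 10 to 15. H2-Aa encodes the alpha chain with which H2-Ab1 pairs. The master regulator Ciita had 9, 4, 5 and 2 counts in WT and 6, 14, 7 and 8 in Hint1-/- libraries and was not tested. The nonclassical H2-Oa and H2-Ob, which restrain H2-DM, had 3 to 6 and 0 to 1 counts. Of these genes only H2-Eb1 passed the filter on low counts and was tested; its log2 fold change was 0.13 (SE 0.27, edgeR adjusted p = 0.806).

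H2-Ab1 (chr17:34257689-34269419), the beta chain of the class II A molecule, was low but above that group. It had 29, 16, 22 and 35 counts in WT and 45, 51, 46 and 45 in Hint1-/- libraries. All Hint1-/- values were above all WT values. CPM averaged 1.22 ± 0.398 in WT against 2.25 ± 0.142 in Hint1-/- libraries (SD, n = 4 each), a log2 fold change of 0.88 (SE 0.20, edgeR adjusted p = 0.00379), and the exact permutation p was 0.0286. The call held in all 15 alternatives, with log2 fold changes of 0.712 to 1.073. Over the libraries, 102 counts in WT stood against 187 in Hint1-/-, while its partner H2-Aa had 3 and 3.

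Other parts of the class II pathway were well expressed. Cd74, the invariant chain, had 2597, 2530, 2609 and 2549 counts in WT and 2303, 2623, 2587 and 2352 in Hint1-/- libraries. The WT libraries lay within the spread of the Hint1-/- libraries, and the log2 fold change was -0.05 (SE 0.041, edgeR adjusted p = 0.445). H2-DMa and H2-DMb1 encode the chains of the peptide exchanger. H2-DMa had 160 to 191 counts in WT and 156 to 192 in Hint1-/- libraries (-0.024), and did not pass the test.

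H2-DMb1 (chr17:34153072-34160230) had 335, 328, 312 and 328 counts in WT and 366, 381, 361 and 372 in Hint1-/- libraries. The ranges did not overlap, and the log2 fold change was 0.19 (SE 0.056, edgeR adjusted p = 0.0174). Its near copy H2-DMb2, with which it shares 22.7% of its words, had 9, 12, 18 and 24 counts in WT and 6, 12, 12 and 9 in Hint1-/- libraries (-0.67, edgeR adjusted p = 0.172). In all, H2-DMb2 had 63 counts in WT and 39 in Hint1-/- libraries, beside 1303 and 1480 of H2-DMb1. By DESeq2 the adjusted p of H2-DMb1 was 0.0806. H2-Ke6 had 104 to 126 and 96 to 121 counts (-0.07) and did not pass the test.

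**Figure D3:**
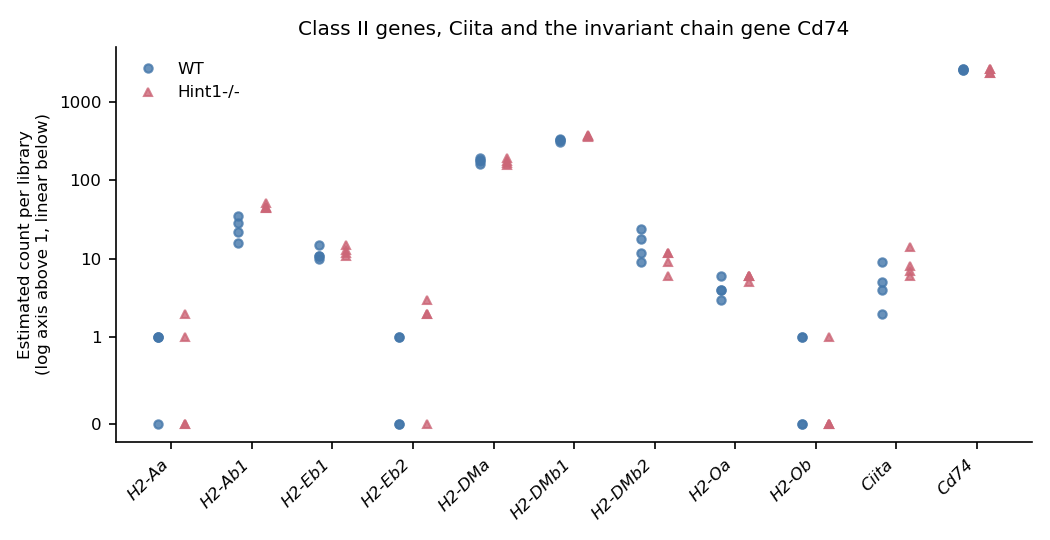
Estimated counts of the 9 class II genes, Ciita and Cd74, with 1 circle per WT library and 1 triangle per Hint1-/- library (y axis logarithmic above 1 and linear below). H2-Aa, H2-Eb2 and H2-Ob stay at 3 counts or fewer in every library, while Cd74 is at 2303 or more in all 8.

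Markers of cells that carry class II molecules were read beside these values. The 10 dendritic and B cell markers summed to 12.9 to 16.2 CPM in WT and 12.1 to 13.9 CPM in Hint1-/- libraries; 4 were tested and none passed. The 9 macrophage markers that fell moved in the opposite direction to H2-Ab1 and H2-DMb1 and in the same direction as Psmb9, Psmb10, H2-T24 and Nlrc5. Cd68 had 6378 to 7313 counts in WT and 4754 to 5171 in Hint1-/- libraries (log2 fold change -0.44, edgeR adjusted p = 3.2e-07), and Csf1r, the receptor of macrophage growth factor, 7863 to 8886 and 6109 to 6663 (-0.38, adjusted p = 9.3e-07). The other 2 tested markers did not pass: Mrc1, the mannose receptor, had 17 to 25 and 21 to 37 counts (0.58, edgeR adjusted p = 0.074), the direction of H2-Ab1, and Itgam 3862 to 4105 and 3568 to 4009 (-0.04, edgeR adjusted p = 0.523). The part of the macrophage markers in the members' changes was not tested.

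WT replicate 4 stood apart in many class I and processing genes. Over the 24 members with a mean of at least 100 counts, it was the lowest WT library in 16, whereas it was the lowest in 26.0% of the 10996 genes at that level. In 11 of the 24 its deviation from the mean of the other WT libraries was below -0.173 on the log2 scale, the 5th percentile of all genes; in the other 7 libraries, compared with their own groups, 0 or 1 of the 24 fell below the corresponding value. The deviation was -0.48 for H2-Q7, -0.42 for H2-Q6, -0.38 for H2-T10, -0.30 for Tap1, -0.27 for H2-T22 and -0.24 for H2-Q4. It was -0.15 for H2-K1 and -0.13 for H2-D1. B2m (-0.00), Cd74 (-0.01), H2-DMb1 (0.02) and H2-M3 (0.04) did not share it.

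Irf7, an interferon-response factor outside the members, was also lowest among the WT libraries in replicate 4, at 13280 counts against 15773 to 15981 in the other 3. It was named after its values were seen. The summed macrophage markers of WT replicate 4 were the highest of all libraries, at 3093 CPM. Its depth, 20778077 counts, was the lowest of the 8 by a small margin.

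Without WT replicate 4, 11 of 32 members passed the test (34.4%, against 19.1% of all genes). H2-Ab1, H2-DMb1 and H2-Q7 were higher in Hint1-/- (9.38%, against 9.98%), and H2-T22, H2-T24, Nlrc5, Psmb8, Psmb9, Psmb10, Tap1 and Tap2 were lower (25.0%, against 9.15%). H2-T-ps and H2-T23 no longer passed. The calls were thus 5 higher and 4 lower with the library, and 3 higher and 8 lower without it. For the 6 genes of peptide transport, loading and the immunoproteasome, 2 fell with it and 5 fell without it, where 10.2% and 9.15% of all genes fell. No source gives a reason to leave the library out, and all other values include it unless stated.

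**Figure D4:**
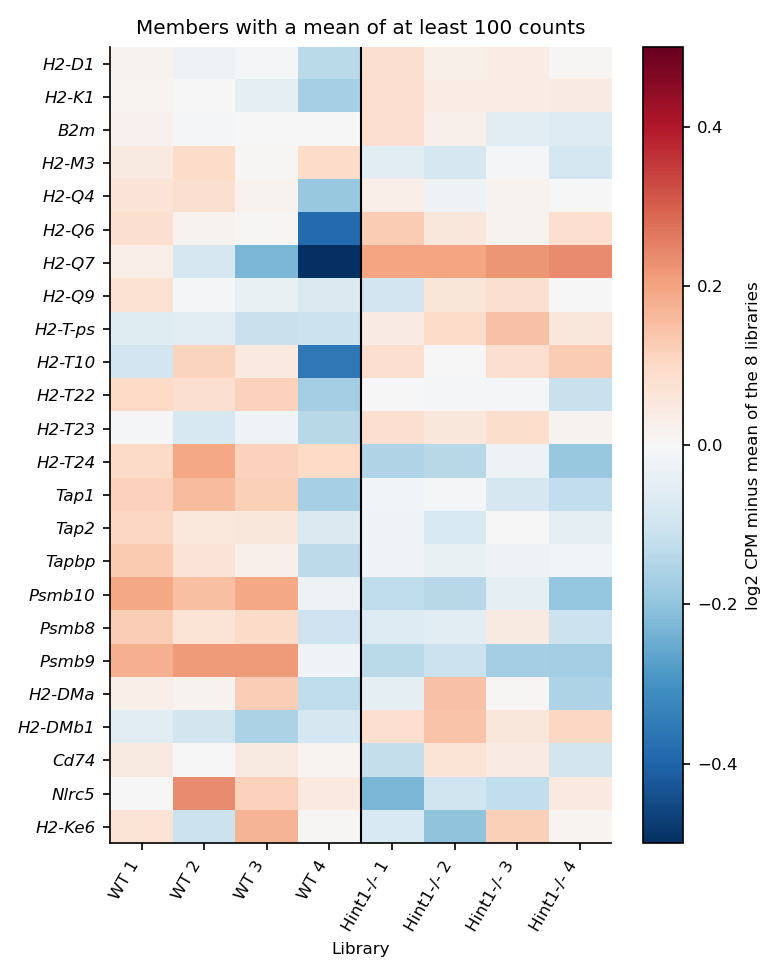
Heat map of log2 CPM minus the mean of the 8 libraries for the 24 members with a mean of at least 100 counts, 1 row per gene and 1 column per library, with the colour scale ending at 0.5 in either direction. The WT 4 column is blue in most class I and processing rows, most deeply in H2-Q7, H2-Q6 and H2-T10, while Psmb9, Psmb10 and Tap1 are red in the other 3 WT columns.

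Because the MHC differs strongly between mouse strains, the region was read as a whole. From H2-K1 to H2-M2 (chr17:33996017-37483552, GRCm38), 111 genes were tested and 22 passed (19.8%), close to 19.2% of the 546 genes on the rest of chromosome 17. Of the 85 genes there that are not members, 15 passed (17.6%), and of the 26 members in the region 7 passed (26.9%). Past both thresholds were H2-Ab1 and Cfb, the complement factor B gene, which had 25868 to 28804 counts in WT and 41587 to 44419 in Hint1-/- libraries (log2 fold change 0.64, edgeR adjusted p = 4.3e-10). Of the 22 calls of the region, 12 were higher and 10 lower in Hint1-/- libraries.

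**Figure D5:**
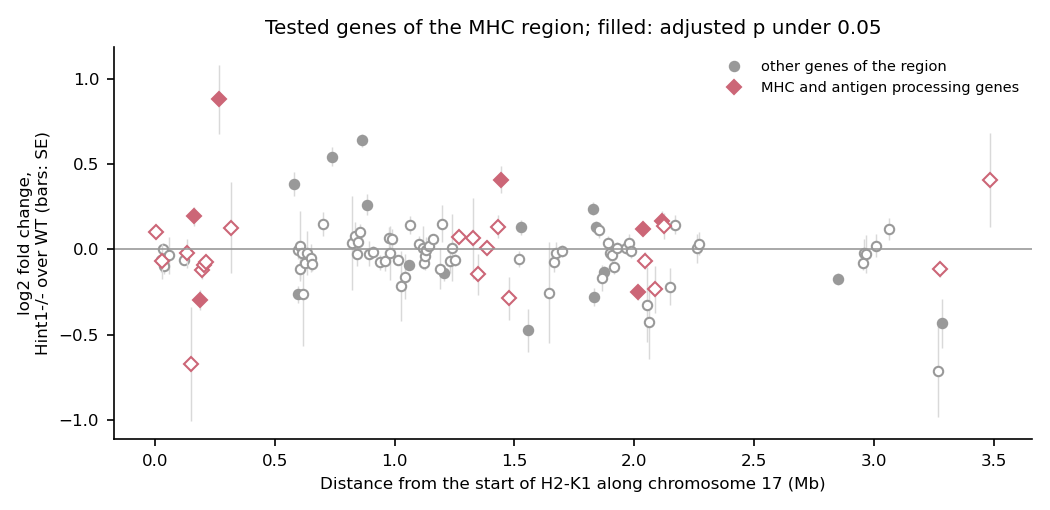
Log2 fold change, Hint1-/- over WT (y axis; bars, SE), of the 111 tested genes of the MHC region against distance in Mb from the start of H2-K1 along chromosome 17; diamonds are members, circles other genes, and filled symbols passed the test at adjusted p under 0.05. Filled symbols occur on both sides of 0 across the region, with H2-Ab1 at 0.88 and the circle of Cfb at 0.64 the highest.

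Some transcripts known to vary between strains differed between the genotypes. Nnt, whose function is lost in the C57BL/6J strain through an internal deletion, had 657 to 702 counts in WT and 1183 to 1329 in Hint1-/- libraries (log2 fold change 0.87, edgeR adjusted p = 3.5e-11). Ifi202b, which is nearly silent in C57BL/6 and active in some other strains, had 161 to 235 and 96 to 140 (-0.71, edgeR adjusted p = 0.000414). Of the 9 transcripts listed, 5 were in the count files and were tested. At adjusted p under 0.05 (edgeR), 1 rose and 2 fell, where 11.2% of all genes rose and 10.2% fell. The symbols of the others, H2-Ea, H2-L and Mx1 among them, were not in the count files, so they could not be read. Glo1, near the MHC and known to vary in copy number between strains, had 1390 to 1484 and 1375 to 1537 counts (0.01, edgeR adjusted p = 0.903). Whether the genotypes differ in strain background was not tested by reads, and a difference of background and the Hint1 deletion cannot be told apart from these counts.

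Reads of H2 genes can also be lost or moved when a haplotype differs from the reference. H2-Q8, H2-Q9 and H2-T18 had no entry on the chromosomes of the GENCODE annotation used here. RefSeq places these 3 genes on a sequence with its own numbering, at 1642938 to 1675706, 1714853 to 1719494 and 2397290 to 2401913. H2-Q9 was nevertheless counted at similar levels in all 8 libraries, 602 to 683. The estimated counts were not whole in any of the 8 libraries for 24 of the 45 members, so their levels depend on how the counting divided reads; 11 members, B2m and the 3 immunoproteasome genes among them, had whole counts throughout.

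Genes that work with the members but lie outside the rule were counted by list, to be read beside the 11.2% of all genes that rose and the 10.2% that fell. Of 28 regulators of the interferon route and the class II enhanceosome, 6 rose and 2 fell: Jak2 had 3092 to 3338 counts in WT and 3899 to 4102 in Hint1-/- libraries (0.33, edgeR adjusted p = 7.0e-07), and Ifnar2, a chain of the type I interferon receptor, 3906 to 4032 and 4524 to 4817 (0.23, adjusted p = 3.2e-05). Of 8 class I chaperones, 3 rose and none fell; these were Hspa5 (0.19), Pdia6 (0.11) and Calr (0.10), chaperones of the endoplasmic reticulum. Of 19 genes of the constitutive proteasome and its activators, 3 fell, namely Psme2 (-0.15), the interferon-induced activator subunit, Psmb5 (-0.11) and Psma5 (-0.11), and none rose.

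Of 9 tested genes of the class II pathway, 5 fell and none rose, again beside 10.2% and 11.2% of all genes. Ctss, the protease that trims the invariant chain, had 1627 to 1902 counts in WT and 1288 to 1410 in Hint1-/- libraries (-0.41, edgeR adjusted p = 5.7e-06), and Ctsb and Lgmn, further lysosomal proteases, had log2 fold changes of -0.25 and -0.17. Ctss moved with the macrophage markers and against H2-DMb1 and H2-Ab1. Of 9 tested class I-like genes, Raet1d (-0.22), Raet1e (-0.21) and Procr (-0.16) fell and Mr1 (0.19) rose; Mr1 was named after its values were seen. Raet1d and Raet1e encode ligands of NKG2D, an activating receptor of natural killer cells, and Mr1 presents vitamin B metabolites to T cells. The median log2 fold changes of these lists ran from -0.172 for the class II pathway to 0.087 for the chaperones, beside 0.000 over all genes.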

How the data were processed

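RNA-Seq of 8 libraries (4 WT, 4 Hint1-/-) was read from the estimated counts per gene symbol that the authors deposited, with no normalization. The study's methods give 50-base reads on a BGISEQ-500 mapped to mm10 with HISAT2; the submitters' processing notes name Bowtie2, RSEM 1.3.1 and DESeq2 1.4.5. Which route made the counts was not settled, and strandedness was not given in the sources used here. Of the values, 67.29 to 67.84% per library were whole numbers; all were rounded. Genes were filtered with filterByExpr, scaled by TMM and compared by edgeR 4.0.16 (glmQLFit, glmQLFTest; R 4.3.3), genotype being the only term, with Benjamini-Hochberg adjustment over 13535 genes. Log2 CPM used a prior count of 2. Alternatives were DESeq2 1.42.0, limma-voom 3.58.1, other scalings and filters, the replicate block and leaving out each library. The fit was tested on simulated counts.

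Exact permutation tests used all 70 assignments. Groups follow the sample labels. Every tested member is named, with full statistics for members past both thresholds and for a fixed set of core genes; from other lists, genes past both thresholds or up to 3 with the smallest adjusted p; 1 gene is not reported here. H2-Q7, the other members past the test alone, and H2-T22 also got per-library values. Marker levels of further lists were also read: endothelial markers summed to 8.15 to 10.9 CPM in WT and 8.48 to 10.5 in Hint1-/- libraries (none of 7 passed), fibroblast markers to 2114 to 2234 and 2953 to 3084 (3 of 8 rose, 3 fell), and smooth muscle markers to 1375 to 1495 and 1130 to 1220 (1 of 9 rose, 7 fell). Shared reads were gauged from 50-base words of GENCODE transcripts, and promoters were RefSeq sequences of GRCm38.p6, found for 33 of 45 members. The members, lists and tests were chosen with earlier results of these data known.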

Additional observations from a re-analysis of the deposited data

Results flagged for a closer look

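Among 64 groups of 4 libraries (32 members in each genotype), 7 held a library far from the other 3 by Dixon's gap ratio, past its usual critical value for 4 samples; chance alone would give about 3.2. Of these, 4 were WT replicate 4, low in each case: H2-Q6 (0.837), H2-T22 (0.880), Tap1 (0.873) and Psmb9 (0.847). H2-T22 was also low in Hint1-/- replicate 4 (0.876). H2-K1 was high in Hint1-/- replicate 1 (0.935) and H2-Ab1 in Hint1-/- replicate 2 (0.843), where it had 51 counts against 45 or 46 in the other 3. The 4 genes with a low WT replicate 4 were 2 class I heavy chains, 1 transporter chain and 1 immunoproteasome subunit, and for H2-T22 and Tap1 the call changed without that library.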

How the results depend on the processing

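H2-Ab1 stayed past both thresholds, and stayed the only such member, in all 15 alternatives. H2-T24, Psmb9 and Psmb10 kept their calls in all 15. With each library left out in turn, the members past the test ranged from 7 to 11, those higher from 3 (without WT replicate 3 or WT replicate 4) to 6, those lower from 3 to 8 (without WT replicate 4), and the median log2 fold change from -0.061 to -0.005; with no filter on low counts the median over all 45 members was 0.010. B2m ranged from -0.033 to 0.018 and changed sign without WT replicate 1 or Hint1-/- replicates 3 or 4. Nlrc5 lost its call without Hint1-/- replicate 1 (edgeR adjusted p = 0.0601), H2-T23 without Hint1-/- replicate 1 (0.050) or WT replicate 4, and H2-DMb1 without WT replicate 3 (0.0596) or by DESeq2. H2-K1 passed by DESeq2 (adjusted p = 0.0450) and by edgeR without WT replicate 1 (0.0428) or WT replicate 2 (0.0413). The cause was not tested. Replicate numbers did not pair the libraries: deviations of same-numbered libraries correlated at -0.045 to 0.0814 over genes. With the replicate block, 11 members passed, H2-K1 (edgeR adjusted p = 0.0498) and Tap1 (0.0406) being added, and 3082 genes in all against 2907. The summed classical heavy chains had a log2 ratio of 0.088, and 0.068 with nonclassical genes. H2-Aa, H2-Eb2, H2-Oa, H2-Ob and Ciita had too few counts to pass the filter, so no difference was estimated for them.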
